A study of Mus musculus with 6 samples.

Results

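The genes that encode the proteins of the mitochondrial ribosome were examined in the striatum of Shank3 transgenic (Shank3 TG) mice, which overexpress Shank3, a scaffold protein of the excitatory postsynapse. Members were taken by name, as protein-coding genes of GENCODE mouse M21 whose symbol begins with Mrpl or Mrps and a number and whose normalized count averaged 10 or more over the 6 libraries. This gave 77 genes, 48 named for the large and 29 for the small subunit, of 17605 genes that passed the same minimum and of 46078 in the table. One further gene with such a name, Mrpl53 (chr6:83109040-83109939), was listed at 0 in all 6 libraries. Of its 790 exon bases, 695 are shared with the annotated genes Gm42688 on the same strand or Ccdc142os on the opposite strand, and the part of this overlap in the zeros was not tested.

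The mitochondrial ribosome translates the few messenger RNAs that mitochondrial DNA encodes, all of them for subunits of the oxidative phosphorylation complexes. Its ribosomal RNAs come from mitochondrial DNA, whereas every one of its proteins is encoded in the nucleus, translated in the cytosol and imported. Many of these proteins have counterparts in the bacterial ribosome, and others were added in the mitochondrial lineage. Striatal neurons depend on oxidative phosphorylation, and defects in several of these proteins cause human mitochondrial disease.

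Striatal RNA of 3 Shank3 TG and 3 wild-type (WT) mice, all of the C57BL/6J background and aged 12 weeks, was sequenced with 1 library per mouse. The transgene encodes EGFP-tagged Shank3, the WT mice do not carry it, and the promoter that drives it is not given in the sources used here. Libraries held between 27689589 and 36647626 reads assigned to genes. Shank3 itself was at 29891, 28309 and 26044 normalized counts in TG mice 1, 2 and 3, and at 13807, 12918 and 13865 in WT mice 1, 2 and 3, so that each library matched its label. Its log2 fold change was 1.05 ± 0.06 (SE, n = 3 mice per genotype), with an adjusted P of 7.04e-05 by limma. Markers of the choroid plexus, a tissue that borders the ventricle, were highest in TG mouse 1, and all 14 tested were higher in TG on average. Their summed level was 16009, 2105 and 718 normalized counts in TG mice 1, 2 and 3 and 632 to 994 in WT mice. TG mouse 2 was thus also above every WT mouse. Of the 14, 5 had an unadjusted P under 0.05 and 4 did not overlap between genotypes. Of all genes tested, 1.98% were higher at that level and 5.06% were higher without overlap. After adjustment 0 of the 14 were called, and their part in the results was not tested. Markers of striatal projection neurons were abundant in every library, and 2 of the 10 were higher and 8 lower in TG on average. Their median log2 fold change was -0.13. Their sums were 123534, 172888 and 144709 normalized counts in TG mice 1, 2 and 3 and 149108 to 171967 in WT mice. TG mouse 1 was thus lowest and TG mouse 2 highest. Cortical excitatory neuron markers had 3 higher and 5 lower, oligodendrocyte markers 4 and 4, and astrocyte markers 2 and 4. All 6 microglia markers were lower in TG on average, with a median log2 fold change of -0.11 and sums of 9866 to 10746 normalized counts in TG and 10803 to 11196 in WT. Of these 6, 2 had an unadjusted P under 0.05, where 2.33% of all genes tested were lower at that level. For 3 the genotypes did not overlap, where 5.05% of all genes tested were lower without overlap. After adjustment 0 were called. In whole tissue, fewer cells of a type and less RNA per cell cannot be told apart, and P-values measure the spread between these mice.

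No mitochondrial ribosomal protein gene differed between genotypes after adjustment over all genes tested. The lowest adjusted P among the 77 was 0.971 (limma with Benjamini-Hochberg adjustment), and 0 were called at 0.05 against 0.00568% of all genes tested, which is Shank3 alone. In log2 fold change, 34 of the 77 were above and 43 below 0, where 49.2% of all genes tested were above 0. The median was -0.012 (quartiles -0.041 and 0.031) and the extremes were -0.18 and 0.14, beside a median of -0.0018 over all genes tested. At an unadjusted P under 0.05 there were 0 members higher in TG, where the share over all genes was 1.98%, and 1 lower, where it was 2.33%. No member changed by more than 1.2-fold in either direction, a size that 1.49% of the genes with a mean of 100 or more passed. The lowest mean of any member was 146 normalized counts.

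In the main fit, the precision of these values was high enough to bound the difference for most members, each taken by itself. The count of such members was not taken in other fits. It does not account for deviations of a single mouse that many members share, which are described below. The 95% interval of the fold change lay within 1.2-fold for 66 of the 77, or 85.7%, compared with 67.5% of the genes with a mean of 100 or more. The median SD among mice of one genotype was 0.071 on the log2 scale for the members and 0.083 for genes of that abundance. For the other 11 members the interval reached past 1.2-fold on one side, so a difference of that size was not excluded.

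**Figure D1:**
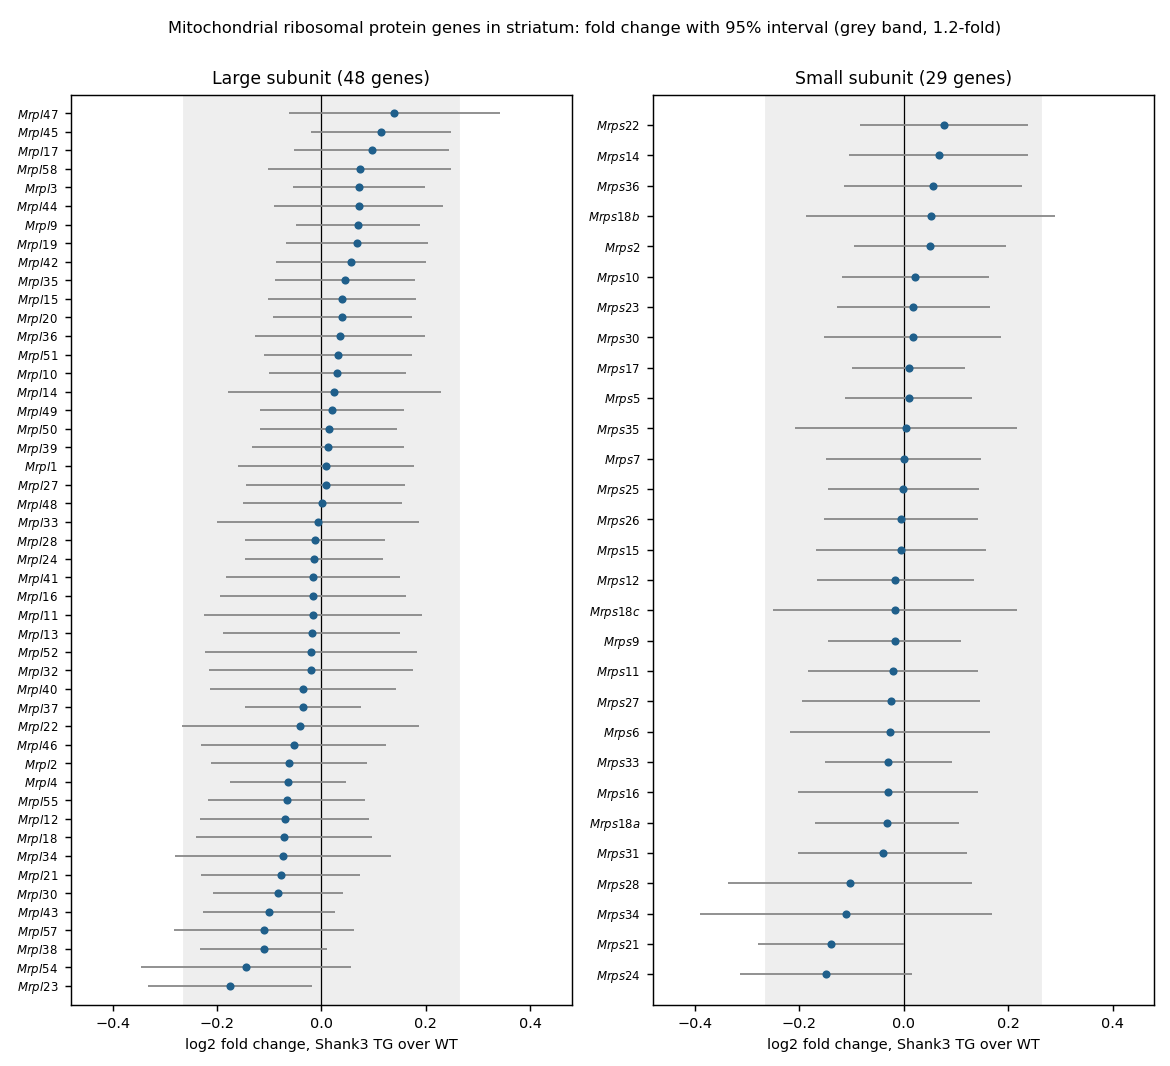
Log2 fold change (Shank3 TG over WT, x axis) of the 48 large-subunit and 29 small-subunit genes, each row 1 gene, with dots for the estimate and lines for the 95% interval of limma (n = 3 mice per genotype); the grey band spans a 1.2-fold difference either way. The interval of Mrpl23 alone excludes 0, and 66 of the 77 intervals lie inside the band.

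Mrpl23, a protein of the large subunit near the exit of the tunnel through which the nascent chain leaves, was the member with the smallest P. Its gene (ENSMUSG00000037772, chr7:142532686-142540747 in GRCm38) was at 441, 402 and 434 normalized counts in the TG mice and at 470.4, 486 and 486 in the WT mice. All 3 TG values lay below all 3 WT values. The log2 fold change was -0.18 ± 0.07 (SE, n = 3 per genotype), with a 95% interval of -0.33 to -0.02, an unadjusted P of 0.0317 and an adjusted P of 0.971 by limma. The exact permutation test gave P = 0.1 (two-sided), the smallest that 3 against 3 mice allow. It has a processed pseudogene, Mrpl23-ps1, at 23.4 to 35.2 normalized counts, which may share reads with it. In the 6 fits that each left out 1 mouse the log2 fold change ran from -0.20 to -0.14, and the unadjusted P stayed under 0.05 only without TG mouse 1 or WT mouse 1.

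The small-subunit members that were lowest in TG relative to WT were Mrps24 and Mrps21. Mrps24, the counterpart of bacterial S3 at the entry of the messenger RNA channel, was at 446, 471 and 409 normalized counts in TG and 493, 484 and 491 in WT. Its log2 fold change of -0.15 ± 0.07 had an adjusted P of 0.971 by limma, and 226 of its 1466 exon bases are shared with Urgcp on the same strand. Mrps21 was at 727, 762 and 711 normalized counts in TG and 849, 806 and 769 in WT, a log2 fold change of -0.14 ± 0.06. For both genes the groups did not overlap, although TG mouse 2 and WT mouse 3 were close to each other for Mrps21.

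On the higher side, the largest estimate was that of Mrpl47, a large-subunit protein at the tunnel exit. It was at 419.6, 435 and 419.7 normalized counts in TG and 429, 340.4 and 391.7 in WT, so that WT mouse 1 lay among the TG mice and WT mouse 2 stood lowest. The log2 fold change was 0.14 ± 0.09, and 1068 of its 4419 exon bases are shared with the annotated genes Actl6a and Ndufb5. Mrpl45, which anchors the ribosome to the inner membrane, was at 777, 831 and 797 in TG and 719.9, 730.4 and 771 in WT, with no overlap and a log2 fold change of 0.11 ± 0.06. Mrps22, a small-subunit protein and mitochondrial disease gene, had the largest estimate of its subunit. Its values were 439, 459 and 436 in TG and 445, 411 and 409 in WT, with a log2 fold change of 0.08 ± 0.07.

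**Figure D2:**
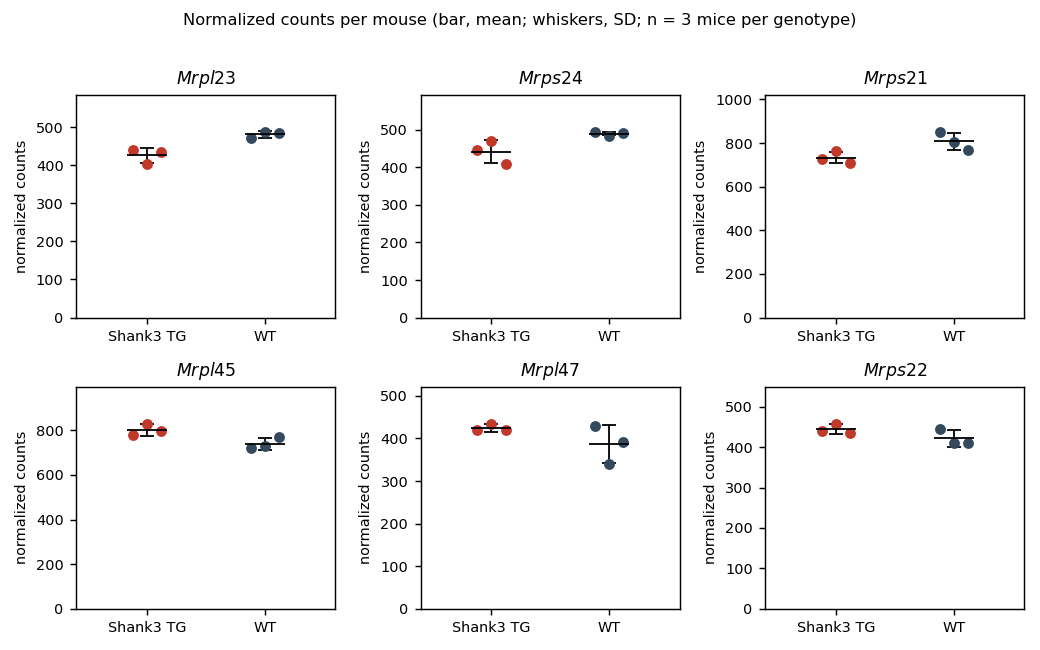
Normalized counts (y axis, from 0) of 6 members in each mouse, with the mean and SD of 3 mice per genotype. The 3 genes of the upper row, Mrpl23, Mrps24 and Mrps21, have every TG mouse below every WT mouse, and Mrpl45 has every TG mouse above; Mrpl47 and Mrps22 overlap.

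Counted over all 77 members, 2 had every TG mouse above every WT mouse, where 5.06% of all genes tested did, and 7 had every TG mouse below every WT mouse, where 5.05% did. The first were Mrpl45 and Mrpl9. The others, beside Mrpl23, Mrps24 and Mrps21, were Mrpl38, Mrpl43, Mrpl4 and Mrpl21. Mrpl9 and these last 4 fall outside the rule for named genes and were named after their values were seen. Mrpl38 had the widest separation of the 4, with 899, 849 and 876 normalized counts in TG and 934, 964 and 936 in WT, and its log2 fold change was -0.11 ± 0.06. The log2 fold changes of Mrpl43, Mrpl4 and Mrpl21 were -0.10, -0.06 and -0.08. Part of Mrpl43, 507 of its 1520 exon bases, is shared with an annotated neighbour on the opposite strand.

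The large and the small subunit did not separate. Of the 48 large-subunit genes 22 were above and 26 below 0 in log2 fold change, with a median of -0.014. Of the 29 small-subunit genes 12 were above and 17 below, with a median of -0.0062. The difference of these medians, large minus small, was -0.0075 in the fit. Taken in each mouse from levels relative to the WT mean, large minus small was 0.027, 0.0032 and 0.0047 in TG mice 1, 2 and 3. In WT mice 1, 2 and 3 it was -0.016, -0.0086 and 0.0067, so the genotypes overlapped. The values per mouse compare medians of levels and not medians of fold changes. They ran higher in TG, opposite in direction to the difference in the fit. The SD of the values per mouse among mice of one genotype was 0.013. Of the member symbols, 3 do not follow the particle. Mrps18a and Mrps30 encode proteins that sit in the large subunit, and Mrps36 encodes a component of the 2-oxoglutarate dehydrogenase complex. With these placed by structure, 50 large against 26 small, the difference in the fit was -0.0026. With the symbols as given, it was above 0 without TG mouse 1 (0.013), TG mouse 3 (0.014) or WT mouse 1 (0.0078). It was also above 0 after correction for GC content and gene length (0.0030).

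The members other than Mrps18a, Mrps30 and Mrps36 were also split by evolutionary origin. The 46 members with a counterpart in the bacterial ribosome had 19 above and 27 below 0 and a median of -0.016. The 28 that were listed as specific to mitochondria had 13 above and 15 below and a median of -0.0035. Mrps18b, described below as a paralog of bacterial S18, was listed among these 28. Among the 45 members that share no exon base with another annotated gene, 18 were above and 27 below, with a median of -0.017. The other 32 share exon bases with a neighbour, whose reads could not be separated by strand in these libraries.

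Genes whose proteins have a known special function were not called either. The stalk, which recruits translation factors to the large subunit, includes Mrpl10, Mrpl11 and Mrpl12. Mrpl10, its base, was at 929, 936 and 866 normalized counts in TG and 898, 859 and 916 in WT, a log2 fold change of 0.03 ± 0.06. Mrpl11 was at 841, 909 and 804 in TG and 1008, 790.3 and 799 in WT, with WT mouse 1 highest and a log2 fold change of -0.02 ± 0.09. Mrpl12, another stalk protein, had a log2 fold change of -0.07 ± 0.07. Mrps12, in the decoding centre, was at 781, 682 and 723 in TG and 762, 729 and 718 in WT, and its log2 fold change was -0.02 ± 0.07. Mrpl44, an RNase III-like protein and mitochondrial disease gene, was at 530.3, 514 and 468 in TG and 489.8, 483 and 465 in WT, a log2 fold change of 0.07 ± 0.07. The genotypes overlapped for each of these genes.

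For the 3 paralogs of bacterial S18 no difference between genotypes was detected. Per kb of exon, Mrps18a stood at 259, Mrps18c at 183 and Mrps18b at 97.6 normalized counts, and the ranges over the 6 mice did not overlap. Mrps18a was at 936, 949.8 and 945 normalized counts in TG and 1044, 921 and 936 in WT. Mrps18b was at 201, 203 and 217 in TG and 211, 176 and 215 in WT, and Mrps18c at 189.6, 203 and 192 in TG and 217, 197 and 179 in WT. Their log2 fold changes were -0.03 ± 0.06, 0.05 ± 0.11 and -0.02 ± 0.11. An annotated neighbour shares 638 of the 2089 exon bases of Mrps18b, and another shares 250 of the 1076 exon bases of Mrps18c. Mrps30 was at 388, 373 and 409 in TG and 405, 373 and 378 in WT, a log2 fold change of 0.02 ± 0.08. For Mrps36 the log2 fold change was 0.06 ± 0.08. The genotypes overlapped for all 5.

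Of the next members, Mrpl58, Mrps27 and Mrpl3 were taken after their values were seen, while Mrps34 falls under the rule for named genes. Mrpl58, a peptidyl-tRNA hydrolase that rescues stalled ribosomes, was at 776, 698 and 742 normalized counts in TG and 782, 673 and 655 in WT, a log2 fold change of 0.07 ± 0.08. Mrps27, a pentatricopeptide repeat protein of the small subunit, was at 486, 443 and 437 in TG and 436, 484 and 469 in WT, a log2 fold change of -0.02 ± 0.08. Mrpl3, a protein near the peptidyl transferase centre, had the most counts of any member, with 1848, 1870.3 and 1799 in TG and 1888, 1677 and 1691 in WT. Its log2 fold change was 0.07 ± 0.06, and WT mouse 1 was the highest of the 6 mice. Mrps34, needed for small-subunit stability, had the fewest counts, with 139, 145 and 135 in TG and 148, 176 and 133 in WT, and a log2 fold change of -0.11 ± 0.13. The genotypes overlapped for these genes, and the errors of Mrps34 were the widest among the members.

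Levels of different genes were compared per kb of exon. The members spanned 23.4-fold on this scale, from 1043 ± 69.0 (SD, n = 6 mice) normalized counts per kb for Mrps21 to 44.5 ± 3.52 for Mrps35. After Mrps21, the small-subunit genes Mrps33 (824 ± 30.4) and Mrps12 (704 ± 33.5) and the large-subunit genes Mrpl41 (939.9 ± 62.0), Mrpl27 (642 ± 28.7) and Mrpl28 (595 ± 19.6) were highest. Mrps35 was lowest, followed upward by Mrpl33 (46.3 ± 2.73), Mrps30 (58.2 ± 2.40), Mrpl32 (67.0 ± 4.08), Mrps34 (70.7 ± 7.62) and Mrpl13 (72.6 ± 4.35). Median levels per kb were 295 for the large and 219 for the small subunit. Neighbours in this order were mostly not distinguishable, since in 72 of the 76 adjacent pairs the ranges over the 6 mice overlapped. The 4 pairs that did not overlap were Mrps33 above Mrps12, Mrpl57 above Mrpl19, Mrpl32 above Mrps30, and Mrps30 above Mrpl33.

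The order depended on the length used. Counting all annotated exon bases lowers genes with long or unused isoforms. With the principal transcript in its place the span was 17.1-fold and the Spearman correlation of the orders across the 77 genes was 0.669, where both use the same counts. Mrpl33 then moved from place 76 to place 15 and Mrpl13 from 72 to 35, while Mrps21 remained first and Mrps35 last. In Mrps34, 1605 of 2064 exon bases are shared with other genes.

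**Figure D3:**
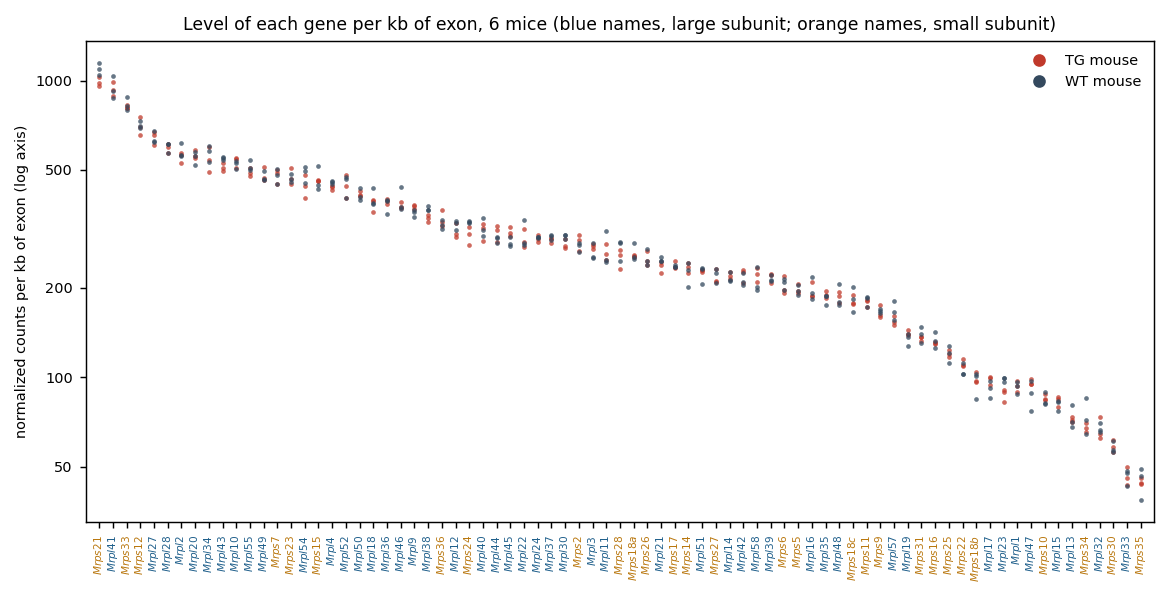
Normalized counts per kb of exon (y axis, log scale) of the 77 genes in descending order, with 1 point per mouse and colours for genotype; names in blue belong to the large and in orange to the small subunit. The order runs from Mrps21 at 1043 to Mrps35 at 44.5, and points of both genotypes are mixed along it.

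Variation among the mice was shared by many members. WT mouse 1 held the highest value of the 6 for 36 of the 77 genes, or 46.8%, against 17.1% of all genes tested. WT mouse 2 held the lowest for 22 and WT mouse 3 for 20. Relative to the mean of the WT mice, the median member was at 0.058, -0.026 and -0.030 log2 units in WT mice 1, 2 and 3, and at 0.0079, -0.013 and -0.026 in TG mice 1, 2 and 3. All 3 TG medians therefore fell within the WT range. Both subunits had this pattern, with WT mouse 1 highest for 23 of the 48 large-subunit and 13 of the 29 small-subunit genes. Summed over the 77 genes, the level was 53177, 52758 and 51855 normalized counts in TG and 54936, 51848 and 51662 in WT.

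The sign of the median depended on single mice. Without WT mouse 1 52 of the 77 members were above 0 and the median log2 fold change was 0.029. Mrpl47 (0.22) and Mrpl3 (0.13) then passed an unadjusted P under 0.05 on the higher side, each with an adjusted P of 0.980 by limma. Mrpl3 was named after its values were seen. Without TG mouse 1, the library with the most choroid plexus RNA, 34 were above 0 and the median was -0.0086. TG mouse 2, also above the WT mice in the sum of those markers, stayed in that fit. Without TG mouse 3, 42 members were above 0 and the median was 0.0039.

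**Figure D4:**
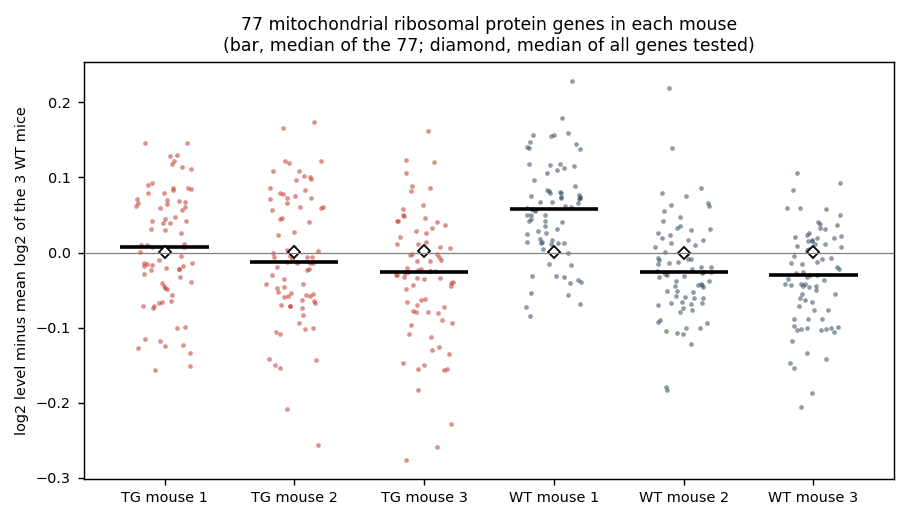
Log2 level of the 77 genes minus the mean of the 3 WT mice (y axis) in each mouse, with 1 point per gene, a bar for the median of the 77 and a diamond for the median of all genes tested. The bar stands at 0.058 in WT mouse 1 and between -0.030 and 0.0079 in the other 5 mice, whereas the diamonds stay near 0.

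The other genes of mitochondrial translation were taken from lists of known function, and 0 of them were called after adjustment. Of the 5 subunits that carry other symbols 3 were above and 2 below 0, among them Ptcd3 (0.10 ± 0.05), Dap3 (0.08 ± 0.06) and Chchd1 (-0.08 ± 0.07). Factors of ribosome assembly and ribosomal RNA modification were split evenly, 13 above and 13 below, with a median of 0.0017. The smallest unadjusted P values there were those of Tfb1m, a ribosomal RNA dimethyltransferase (0.13 ± 0.11), Gtpbp6 (-0.11 ± 0.10) and Mrm3 (0.10 ± 0.09).

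Translation factors and regulators of mitochondrial messenger RNA were above 0 in 11 of 14 cases, with a median log2 fold change of 0.062. Lrpprc, which stabilizes mitochondrial messenger RNA, was at 2467, 2562 and 2577 normalized counts in TG and 2292, 2359.6 and 2306 in WT. The groups did not overlap, the log2 fold change was 0.13 ± 0.05 and the unadjusted P was 0.0172, with an adjusted P of 0.971 by limma. The initiation factor Mtif2 (0.12 ± 0.08) and the elongation factor Tufm (0.06 ± 0.05) followed. Of the 20 genes of aminoacyl-tRNA synthesis 8 were above and 12 below 0. The smallest unadjusted P values there were those of Fars2 (-0.09 ± 0.07), Gatc (0.07 ± 0.06) and Iars2 (0.05 ± 0.05). Another gene of this list, Lars2, was at 22709 in TG mouse 1 and 18700 in WT mouse 1 and between 2998 and 5450 in the other 4. Its log2 fold change was -0.29 ± 0.72, and the reason for this spread among mice was not tested. Lars2 was named after its values were seen.

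Among the genes that replicate and transcribe mitochondrial DNA 4 were above and 5 below 0, led by Tfam (0.14 ± 0.06) and the RNA polymerase Polrmt (-0.16 ± 0.08). Of the 8 nuclear regulators 2 were above and 6 below. Ppargc1a, a coactivator of mitochondrial biogenesis, was at 1586, 1558 and 1623 in TG and 1442, 1489.8 and 1517 in WT, a log2 fold change of 0.10 ± 0.05 without overlap. Esrra, a nuclear receptor that works with it, had -0.10 ± 0.05.

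The messenger RNAs that this ribosome translates were all below 0. All 13 protein-coding genes of mitochondrial DNA had a negative log2 fold change, with a median of -0.15, and 0 were called after adjustment. At an unadjusted P under 0.05 there were 4, mt-Atp8 (-0.28 ± 0.09), mt-Co3 (-0.48 ± 0.16), mt-Co2 (-0.27 ± 0.10) and mt-Atp6 (-0.39 ± 0.17). That count was 1 without WT mouse 1, 2 without WT mouse 3 and 10 by DESeq2 with a prior and an empirical null. Of all 17605 genes tested, 410 (2.33%) were lower at that level in the main fit. In the alternatives just named, in turn, they were 390, 328 and 556. The genotypes did not overlap for mt-Atp8 and mt-Co3, where 5.05% of all genes tested were lower without overlap. Values of mt-Atp8 were 16738, 21728 and 19271 in TG and 25245, 22079.9 and 22359 in WT. Far fewer counts were assigned to mt-Co3 (82.4 to 151), mt-Co2 (334 to 458) and mt-Atp6 (185 to 373). The same held for mt-Nd3 (283 to 355) and mt-Nd4l (6.82 to 17.8), beside 529588 to 672364 for mt-Co1. The reason for these low counts was not tested. The adjusted P of mt-Atp8 was 0.0501 by DESeq2 with a prior and an empirical null, the lowest of its alternatives. These genes lie on 1 small genome, are transcribed as long precursors and are not independent of each other. Per mouse the median of the 13 was -0.13, -0.068 and -0.26 in TG and 0.14, -0.089 and -0.071 in WT. WT mouse 1 stood highest here too, and without it the median log2 fold change was -0.067. The part of the cell-type markers given above in these values was not tested. The ribosomal RNAs mt-Rnr1 and mt-Rnr2 had log2 fold changes of -0.09 ± 0.10 each and were likewise highest in WT mouse 1, at 87795 and 146442 normalized counts. Without it their values were 0.03 and 0.02.

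**Figure D5:**
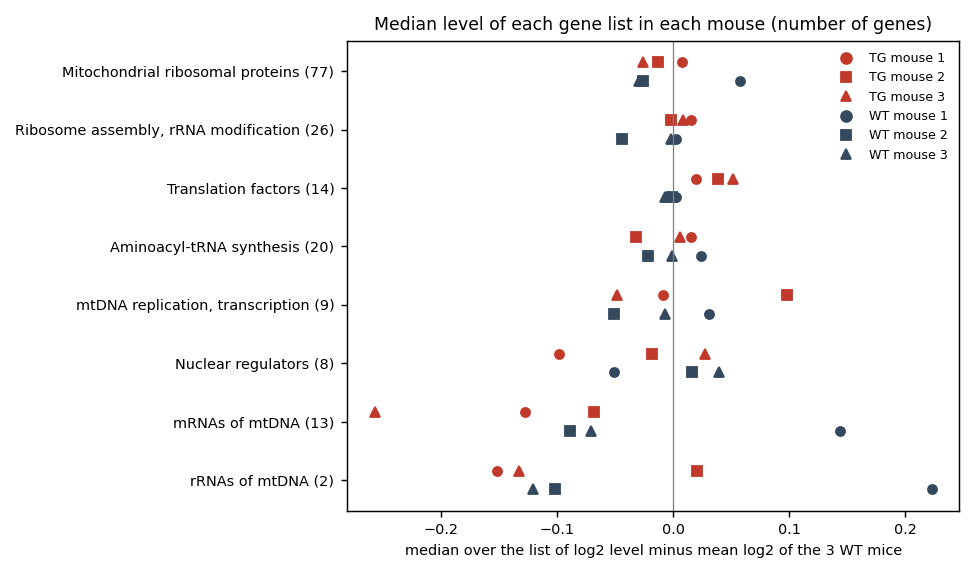
Median over each gene list (y axis, number of genes in brackets) of the log2 level minus the mean of the 3 WT mice (x axis), with 1 symbol per mouse. For the 77 ribosomal protein genes and for the RNAs of mitochondrial DNA, WT mouse 1 lies to the right of the other 5 mice.

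The members were also described by the sequence before their start sites. They lie on 17 chromosomes, 11 of them on chromosome 11. At 23 of the 77 genes, or 29.9%, another protein-coding gene starts on the opposite strand within 1000 bases upstream, with at most 200 bases of overlap. Of the 14915 protein-coding genes tested 10.7% have such a partner. Partners include mitochondrial genes, such as Sars2, the mitochondrial seryl-tRNA synthetase, 172 bases from Mrps12, and Ndufs6, a complex I subunit, opposite Mrpl36. Log2 fold changes were -0.02 for both Mrps12 and Sars2, and 0.04 and -0.07 for Mrpl36 and Ndufs6. Psma2, a proteasome subunit that starts 75 bases from Mrpl32, had 0.05 beside -0.02. These partners were chosen for their function after their values were seen.

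RefSeq promoters (GRCm38.p6, 250 bases before to 50 after the start) were matched for 68 members by symbol. Where RefSeq lists several starts, the one nearest the GENCODE gene start was taken. It lay 17016 bases from the GENCODE start for Mrpl33, 7979 for Mrps24, 3185 for Mrpl35 and 2496 for Mrpl36. Mrpl13, Mrpl15, Mrpl19, Mrpl38, Mrpl4, Mrpl54, Mrps28, Mrps34 and Mrps35 were not matched. Motifs were searched as exact letters on both strands, and matches to different motifs could overlap. CGCATGCG, the core bound by nuclear respiratory factor 1, was in 7 of the 68 (10.3%) and in 3.54% of all 11636 promoters. CCGGAAG, the core bound by ETS factors including nuclear respiratory factor 2, was in 23 (33.8%) against 16.4%. AAGATGGC, the core bound by YY1, was in 12 (17.6%) against 4.24%. GGGCGG, bound by Sp1, was in 34 (50%) against 62.6%, and TATAAA, the TATA core, in 4 (5.88%) against 7.27%. Either of the first 2 was in 27 members and both were in 3, Mrpl17, Mrpl22 and Mrps18b. A match of letters does not show that a factor binds.

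The 150 bases before the RefSeq start are shown for 5 members, chosen after their values were seen, as examples with and without the motifs. Mrpl22 holds both cores, Mrpl9 holds the first and Mrps22 the second, and Mrpl45 and Mrpl23 hold neither in this window. The RefSeq start of Mrpl23 is 346 bases from its GENCODE start, so its stretch lies inside the gene as annotated by GENCODE. Capitals mark a match to CGCATGCG or to CCGGAAG on either strand.
Mrpl22 (chr11:58171514-58171663, plus strand): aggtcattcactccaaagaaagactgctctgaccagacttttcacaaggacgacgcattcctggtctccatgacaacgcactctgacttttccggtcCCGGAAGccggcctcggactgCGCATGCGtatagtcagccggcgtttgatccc
Mrpl9 (chr3:94443186-94443335, plus strand): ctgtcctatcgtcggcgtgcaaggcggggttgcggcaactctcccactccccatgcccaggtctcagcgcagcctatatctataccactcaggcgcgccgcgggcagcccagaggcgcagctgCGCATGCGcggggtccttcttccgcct
Mrps22 (chr9:98601680-98601829, minus strand): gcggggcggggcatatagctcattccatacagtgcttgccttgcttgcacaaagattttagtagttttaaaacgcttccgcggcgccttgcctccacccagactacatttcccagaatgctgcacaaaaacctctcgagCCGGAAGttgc
Mrpl45 (chr11:97315566-97315715, plus strand): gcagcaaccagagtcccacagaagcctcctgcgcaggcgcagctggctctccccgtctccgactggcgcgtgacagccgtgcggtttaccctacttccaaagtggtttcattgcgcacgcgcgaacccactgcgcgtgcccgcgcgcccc
Mrpl23 (chr7:142532882-142533031, plus strand): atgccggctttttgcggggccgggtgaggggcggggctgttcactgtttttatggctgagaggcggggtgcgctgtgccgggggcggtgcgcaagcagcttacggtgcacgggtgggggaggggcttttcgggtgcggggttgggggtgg
The last base of each line lies next to the start site. In Mrpl22 the ETS core begins 53 and the other core 32 bases before the start, in Mrpl9 the core begins 27 and in Mrps22 11 bases before it. Mrpl9 and Mrpl45 are the 2 members with every TG mouse above every WT mouse, and Mrpl22 had a log2 fold change of -0.04 ± 0.10. A relation between motifs and fold changes was not tested.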

How the data were processed

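Striatal RNA of 3 Shank3 TG and 3 WT mice was sequenced for the authors by a commercial provider with a TruSeq kit that does not mark strand. Reads were trimmed (Trimmomatic 0.35), aligned to GRCm38 (TopHat2 2.1.0) and counted per gene (HTSeq). The annotation release and strand setting are not given in the sources used here. The deposited values are a signal per gene, counts divided by DESeq2 size factors. Dividing by the smallest value above 0 in a library gave whole reads within 0.01 for 100% of values. Every column of the table is 1 of the 6 samples, and 0 were left unused.

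Genes were matched to GENCODE M21 by Ensembl identifier (45229 of 46078). The main test was limma 3.58.1 (R 4.3.3) in its trended form, fitted to log2(value + 1) of the 17605 genes with a mean of 10 or more, with Benjamini-Hochberg adjustment; fold changes are on that scale. Replicate libraries differed by more than sampling noise. edgeR 4.0.16 (quasi-likelihood), DESeq2 1.42.0, with and without a prior, and limma-voom were run on the recovered reads as alternatives, as were other scalings, filters, pseudocounts and sample sets. The fits were run on simulated data in which genes varied independently, so variation shared by many genes of a library was not covered. Tables and figures were made with pandas and matplotlib.

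The members and all gene lists were chosen with earlier results of these data known. Members named are those with an unadjusted P under 0.05 (at most 8 per direction), the 3 highest and 3 lowest per kb and the largest rise and fall of each subunit, 12 members fixed for their function, and members under the filter; of other lists, up to 3 genes with the smallest P. Length is the union of annotated exons. Promoters are those of RefSeq.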

Additional observations from a re-analysis of the deposited data

How the results depend on the processing

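With 3 mice per genotype and depths of 27689589 to 36647626 reads, the 95% interval of the main fit reached past 1.2-fold for 11 of the 77 members. In 18 alternatives no member and no other gene of mitochondrial translation was called after adjustment, and Shank3 stayed called, with log2 fold changes of 0.82 to 1.13. Members lower at an unadjusted P under 0.05 numbered 1; they were 2 by edgeR, limma-voom, DESeq2 with a prior and an empirical null, TMM factors and a mean of at least 50, 0 by DESeq2 without a prior, and 0 to 2 with each mouse left out. Members higher numbered 0, and 0 to 2 with each mouse left out. Leaving out each mouse gave 29 to 52 members above 0, a member median of -0.023 to 0.029 and a large minus small difference of -0.018 to 0.014; without WT replicate 1 the first were 52 and 0.029. Members without overlap numbered 2 to 11 (higher) and 8 to 13 (lower) in those fits, where the share over all genes rose from 5.06% to between 8.63% and 12.6% (higher) and from 5.05% to between 8.37% and 13.0% (lower). After correction for GC content and gene length they were 1 and 5, beside 4.89% and 3.86% of all genes. Beside these, 135 of 144 list medians moved by less than the spread between mice. The median of translation factors was 0.028 with the DESeq2 prior and 0.047 to 0.064 with each mouse left out. In those fits the medians were 0.0019 to 0.065 for subunits under other symbols, -0.017 to 0.010 for assembly, -0.0095 to 0.020 for aminoacyl-tRNA synthesis and -0.045 to 0.049 for mitochondrial DNA replication and transcription.

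Same-numbered TG and WT mice deviated with correlations of 0.047, 0.016 and 0.093, and nothing in the labels pairs them. With the replicate number as a block 2 members were lower at an unadjusted P under 0.05 and the member median was -0.012.

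Of 1026 values for the 57 genes followed through the alternatives 42 changed sign, all of genes within 0.09 of 0. Mrpl58, Mrps27, Lars2, Sars2, Ndufs6 and Psma2, named above with their fold changes, were not among those followed. After the GC and length correction Mrpl28 was at 0.044, Mrps12 at 0.023, Mrps18a at 0.0034, Mrps30 at -0.017 and Mrps35 at -0.021; Mrps35 was at -0.0040 by edgeR, -0.0034 by DESeq2 and -0.0017 with its prior. With each mouse left out the log2 fold changes spanned -0.078 to 0.098 (Mrpl11), -0.069 to 0.054 (Mrpl13), -0.10 to 0.049 (Mrpl22), -0.025 to 0.051 (Mrpl27), -0.045 to 0.014 (Mrpl28), -0.090 to 0.028 (Mrpl32), -0.060 to 0.040 (Mrpl33), -0.069 to 0.053 (Mrpl41), -0.067 to 0.030 (Mrps12), -0.066 to 0.024 (Mrps18a), -0.040 to 0.10 (Mrps18b), -0.088 to 0.053 (Mrps18c), -0.018 to 0.053 (Mrps30), -0.062 to 0.011 (Mrps33), -0.099 to 0.074 (Mrps35), -0.15 to 0.032 (mt-Rnr1) and -0.15 to 0.015 (mt-Rnr2). The length of the principal transcript, an alternative chosen after seeing the data, changed the span of levels per kb from 23.4-fold to 17.1-fold.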
